A study of Mus musculus with 40 samples.

Results

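The 9 genes described here are the tubulin genes Tuba1a, Tuba1b, Tuba1c and Tuba4a, which encode α-tubulins, and Tubb2a, Tubb2b, Tubb4b, Tubb5 and Tubb6, which encode β-tubulins. They were taken by symbol from 4 tables of DESeq2 normalized counts, one for each tissue and sex, and are 9 of the 20078 gene symbols in those tables. The members were chosen by their nicotine-against-control differences in the same tables, so those differences are given here as a description. No p-value is printed for a member, and counts of members past a threshold stand beside the share of all genes past it and support nothing. The tissues were liver and gWAT (gonadal white adipose tissue, fat lying next to the gonads), taken from female and male mice of the C57BL/6J strain whose fathers had been exposed to nicotine or had been controls, a column heading of the tables for the latter being DMSO. No genetic change is labelled, and the sources used here give no age, dose or route of exposure. The 8 groups of tissue, sex and paternal exposure held 5 libraries each, except male gWAT controls with 4, whose columns carry no replicate number that ties them to labelled samples. The labels do not tie samples to animals, litters or fathers, so every spread below is between samples and may be technical.

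The 39 libraries were made from polyadenylated RNA by a 3′-tag method, which reads transcripts close to their polyadenylated end, and held 1543208 to 2239073 reads assigned to genes. The tissue labels fit the defining genes: the hepatocyte gene Alb ranged from 28864 to 56679.5 normalized counts in the 20 livers and from 66.4 to 1866 in the 19 gWAT libraries, and the adipocyte gene Adipoq from 2900.4 to 9040.4 in gWAT and from 0 to 42.8 in liver. A few libraries held transcripts of a neighbouring tissue. Skeletal muscle markers were high in female gWAT control 2 and male liver nicotine 4, pancreas markers in male liver nicotine 2, ovary and uterus markers in female gWAT control 4, and epididymis markers in male gWAT control 1 and nicotine 1. Hepatocyte markers summed to 3195 in male gWAT nicotine 1 (205 to 672 in the other male gWAT libraries), and ovary and uterus markers to 160.1 in female liver nicotine 5 and 117 in male liver control 2 (at most 11.7 in the other livers). Values are normalized counts as mean ± SD, folds are ratios of group means, and differences (nicotine minus control, with their standard error, SE) are of log2 values taken after adding 1 to the normalized count, a scale that understates the change of low genes. A gene is called where its Benjamini-Hochberg adjusted p from limma, over all genes of a table with a mean of 10 or more, is under 0.05.

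Microtubules are hollow polymers of α- and β-tubulin heterodimers that carry intracellular transport, build the mitotic spindle and, in hepatocytes, serve the secretion of lipoproteins and plasma proteins. Vertebrates encode several isotypes of each subunit, which differ mainly in their C-terminal tails, and cells adjust the stability of tubulin mRNAs to the pool of free tubulin, a process called autoregulation. Tuba1a, Tubb2a and Tubb2b are best known from neurons, Tuba1b, Tuba1c and Tubb5 are expressed in many cell types, Tubb4b is prominent in ciliated cells, and Tuba4a encodes an α-tubulin without the usual C-terminal tyrosine.

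The genes lie in part as tandem copies (GENCODE M21, GRCm38, the assembly of mm10). The 3 Tuba1 genes share chromosome 15, with Tuba1b at chr15:98931425-98934565 and Tuba1a at chr15:98949837-98953703 on the minus strand and Tuba1c at chr15:99029891-99038110 on the plus strand. Tubb2a (chr13:34074274-34078007) and Tubb2b (chr13:34126748-34130466) are neighbours on the minus strand. Tuba4a (chr1:75214228-75219865), Tubb4b (chr2:25222160-25224702) and Tubb5 (chr17:35833921-35838306) are on the minus strand of other chromosomes, and Tubb6 is on chromosome 18. Each principal transcript has 4 exons. Stk16 overlaps Tuba4a on the opposite strand over 1379 bases and Fam166a overlaps Tubb4b over 121 bases, and 1 predicted gene model overlaps Tuba1a (3715 bases) and Tuba1b (2429 bases) on the same strand. No source used here gives the use of strand in the counting, so reads of opposite-strand partners cannot be told apart.

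Reads of near-identical copies are uncertain. Coding sequences were 84.8 to 98.3% identical between α-tubulin pairs, highest for Tuba1a with Tuba1b, and 80.2 to 96.5% between β-tubulin pairs, highest for Tubb2a with Tubb2b. The last 300 bases of each transcript, where 3′ tags fall, were searched for stretches of 50 bases that occur anywhere in another member's transcript. Those of Tuba1c held 107 found in Tuba1a and 107 found in Tuba1b. Those of Tuba1b held 87 found in Tuba1a and 45 in Tuba1c, and those of Tuba1a held 47 found in Tuba1b and 5 in Tuba1c. Tubb2a held 35 that occur in Tubb2b, while the last 300 bases of Tubb2b held 0 that occur in Tubb2a. The other β-tubulin pairs shared 0 there. Tubb4b shared 675 stretches over the whole transcript with the pseudogene Tubb4b-ps1 and 282 with Tubb4b-ps2. How the authors' counting treated such reads is not stated in the sources.

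The upstream sequence is shown for Tubb2a and Tuba1c, the members called lower in both female tissues, and for Tubb5, a β-tubulin called lower in female gWAT that differs from Tubb2a in its motifs. RefSeq promoter entries (GRCm38.p6) matched 7 of the 9 members, with no match for Tubb2b and Tubb6. Each line gives the 250 bases before the RefSeq start site, 5′ to 3′ on the gene's own strand, with matches to the searched motifs on either strand in capitals: chr13:34078009-34078258 (minus strand) for Tubb2a, chr15:99029641-99029890 (plus strand) for Tuba1c and chr17:35838302-35838551 (minus strand) for Tubb5.
Tubb2a: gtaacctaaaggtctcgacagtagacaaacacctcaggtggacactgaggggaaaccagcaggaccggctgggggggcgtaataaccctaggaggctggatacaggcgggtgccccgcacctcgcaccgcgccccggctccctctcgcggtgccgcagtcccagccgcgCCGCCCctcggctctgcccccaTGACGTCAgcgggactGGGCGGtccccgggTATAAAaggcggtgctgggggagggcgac
Tuba1c: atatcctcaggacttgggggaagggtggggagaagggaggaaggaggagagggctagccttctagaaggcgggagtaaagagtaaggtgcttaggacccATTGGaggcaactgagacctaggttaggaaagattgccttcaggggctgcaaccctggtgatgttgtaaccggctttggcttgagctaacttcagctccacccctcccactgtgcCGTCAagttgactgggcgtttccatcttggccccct
Tubb5: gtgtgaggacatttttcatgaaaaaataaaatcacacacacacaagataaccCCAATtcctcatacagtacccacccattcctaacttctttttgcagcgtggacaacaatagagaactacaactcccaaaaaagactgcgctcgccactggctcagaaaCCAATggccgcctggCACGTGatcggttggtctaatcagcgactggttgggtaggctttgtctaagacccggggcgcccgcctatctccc

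Of the motifs searched, the CCAAT box was read as CCAAT. The GC box was read as GGGCGG. The E-box was read as CACGTG. The TATA box was read as TATAAA. The core of the cAMP response element was read as TGACG, whose palindromic full form gives overlapping matches on both strands. All were searched on both strands, and in the windows shown no match to a motif overlapped a match to another motif. The Tubb2a window held 2 GC boxes, 1 TATA box 29 bases before the start and 2 cAMP cores that overlap on opposite strands at 59 and 56 bases before it, and no CCAAT box. The Tuba1c window held 1 CCAAT box and 1 cAMP core, and the Tubb5 window held 2 CCAAT boxes and 1 E-box. Over the 7 matched members, the CCAAT box occurred in 4 windows, the GC box in 5, the E-box in 1, the TATA box in 1 and the cAMP core in 4. In the same order, they occurred in 33.8, 32.7, 6.02, 12.4 and 17.8% of all 32851 RefSeq windows of the same length. The cAMP core was held by Tubb2a and Tuba1c, at different places, and also by Tuba4a and Tubb4b, which were called in no table. Tuba1a, Tuba1b and Tubb5, called lower in female gWAT, had no match to it. For Tuba1a and Tuba1b the RefSeq start lay 202 and 175 bases inside the GENCODE transcript. Most of each of those 2 windows, which enter the counts above, was therefore transcribed sequence by GENCODE. A match describes these letters and is not a site.

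In control mice the members differed between the tissues, measured in reads per 1000000 assigned reads (RPM) because the tables were normalized separately, so that levels set across tables are not tested. Tuba1a averaged 436 RPM in female gWAT and 12.8 in female liver, a 34.2-fold difference, and 650.1 and 10.7 in males, a 60.6-fold difference. Tuba1b was 15.8-fold higher in female gWAT and 51.4-fold higher in male gWAT than in liver of the same sex. Tuba4a was the opposite, at 1.77-fold (females) and 2.59-fold (males) higher means in liver, although the female ranges overlapped. That overlap came only from gWAT control 2, at 325 RPM, the library high in skeletal muscle markers. Female liver controls had at least 155 RPM, and the 1.77-fold depends on that gWAT library. Tuba1c was 2.03-fold higher in liver than in gWAT of females, with no overlap, and 1.30-fold higher in gWAT of males, with overlap. Among the β-tubulins, Tubb2a, Tubb4b and Tubb5 were above liver in every gWAT control library of both sexes, with Tubb4b at 2.38-fold (females) and 11.1-fold (males) and Tubb5 at 3.18-fold and 2.76-fold. Tubb2b had rows in both gWAT tables and none in either liver table, where a gene needs a total of at least 10 reads to be listed.

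Over the 8 groups, Tubb2a was highest on average in male liver of the nicotine group (115 ± 136 RPM, SD, n = 5), followed by male gWAT of the nicotine group (91.0 ± 25.4), female gWAT controls (86.4 ± 10.0), male gWAT controls (69.8 ± 17.1) and female liver controls (57.6 ± 13.4). Below these came female liver of the nicotine group (23.9 ± 2.44), female gWAT of the nicotine group (19.9 ± 5.29) and male liver controls (17.5 ± 5.14). The ranges of all neighbours in this order overlapped except those of female liver controls and the next group below. Tubb2b averaged 132 ± 61.5 RPM in male gWAT of the nicotine group, 98.3 ± 77.5 in male gWAT controls and 84.7 ± 39.6 in female gWAT controls, which overlapped, and 6.93 ± 2.03 in female gWAT of the nicotine group, which lay below all of them.

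In female gWAT all 9 tubulin genes had lower means in daughters of nicotine-exposed fathers, and the differences ranged from 1.35-fold for Tubb4b to 9.85-fold for Tubb2b. The difference was largest for Tubb2b, then Tuba1a and Tubb2a. The limma fit called 6 of 9 members (Tuba1a, Tuba1b, Tuba1c, Tubb2a, Tubb2b and Tubb5), all lower, in a table where 25.2% of all 10532 tested genes were called and 12.8% were called lower. The groups did not overlap for 4 members (Tuba1a, Tubb2a, Tubb2b and Tubb5), all lower, as for 8.19% of all tested genes. The members were chosen with this contrast in view, so nothing is read from these counts.

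Among the α-tubulins, Tuba1a had 447, 1009.6, 744, 811 and 568 normalized counts in control libraries 1 to 5 and 169, 174, 198, 163 and 214 in nicotine libraries 1 to 5. Every nicotine library lay well under the lowest control, and the nicotine libraries were also closer to each other. The means were 716 ± 218 and 184 ± 21.5 (SD, n = 5 each), a 3.90-fold lower level with a log2 difference of -1.91 (SE 0.20). Tuba1b, its near-identical neighbour, had 918, 1098, 1114, 629 and 848 in controls and 304, 442, 701, 464 and 562 with nicotine. One nicotine library, number 3, lay inside the control range, and the log2 difference was -0.92 (SE 0.22). Tuba1c showed the same order with 1 library of overlap: controls ranged from 169.6 to 234 and nicotine libraries from 95.4 to 177, with a log2 difference of -0.70 (SE 0.18).

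Tuba4a was set apart by 1 control library. It had 108, 539, 53.3, 73.3 and 60.5 normalized counts in controls and 65.4, 33.8, 64.6, 42.1 and 80.6 with nicotine, so that only control 2 was far above the rest. The log2 difference was -0.95 (SE 0.50) with all libraries and -0.37 without control 2. The same library held a summed 22894 normalized counts of the 7 skeletal muscle markers, against 13.2 to 1247 in the other female gWAT libraries. 0 of those 7 markers were called in either direction. Their part in the Tuba4a value was not tested.

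Among the β-tubulins, Tubb2b had 122, 98.0, 149, 247 and 84.5 normalized counts in controls and 13.8, 10.9, 15.5, 13.2 and 17.8 with nicotine. The lowest control was several times the highest nicotine library, and the nicotine values were near the bottom of the range in which genes were tested. The means were 140.1 ± 64.8 and 14.2 ± 2.59 (SD, n = 5 each), 9.85-fold lower, with a log2 difference of -3.12 (SE 0.27). The 5 nicotine libraries together held 68 Tubb2b reads, against 774 in the 5 controls.

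Tubb2a, which neighbours Tubb2b on chromosome 13, had 141, 159, 158, 143 and 113 in controls and 45.9, 44.7, 34.6, 31.2 and 48.8 with nicotine. The groups were again fully apart, with means of 143 ± 18.5 and 41.0 ± 7.65, a 3.49-fold lower level and a log2 difference of -1.79 (SE 0.18). Tubb5, the widely expressed β-tubulin, had 204, 263, 223, 299.6 and 224 in controls and 162, 101, 106, 78.1 and 163 with nicotine. These groups did not overlap either, though nicotine 1 and 5 came closer to the controls than the other 3, and the log2 difference was -1.03 (SE 0.21). Tubb4b ranged from 77.7 to 141 in controls and from 57.2 to 95.5 with nicotine (log2 difference -0.42, SE 0.21), and Tubb6 from 7.84 to 38.5 and from 7.25 to 27.5 (-0.51, SE 0.42). Both overlapped broadly and neither was called. In bulk tissue, fewer cells of a type and less RNA per cell cannot be told apart.

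**Figure D1:**
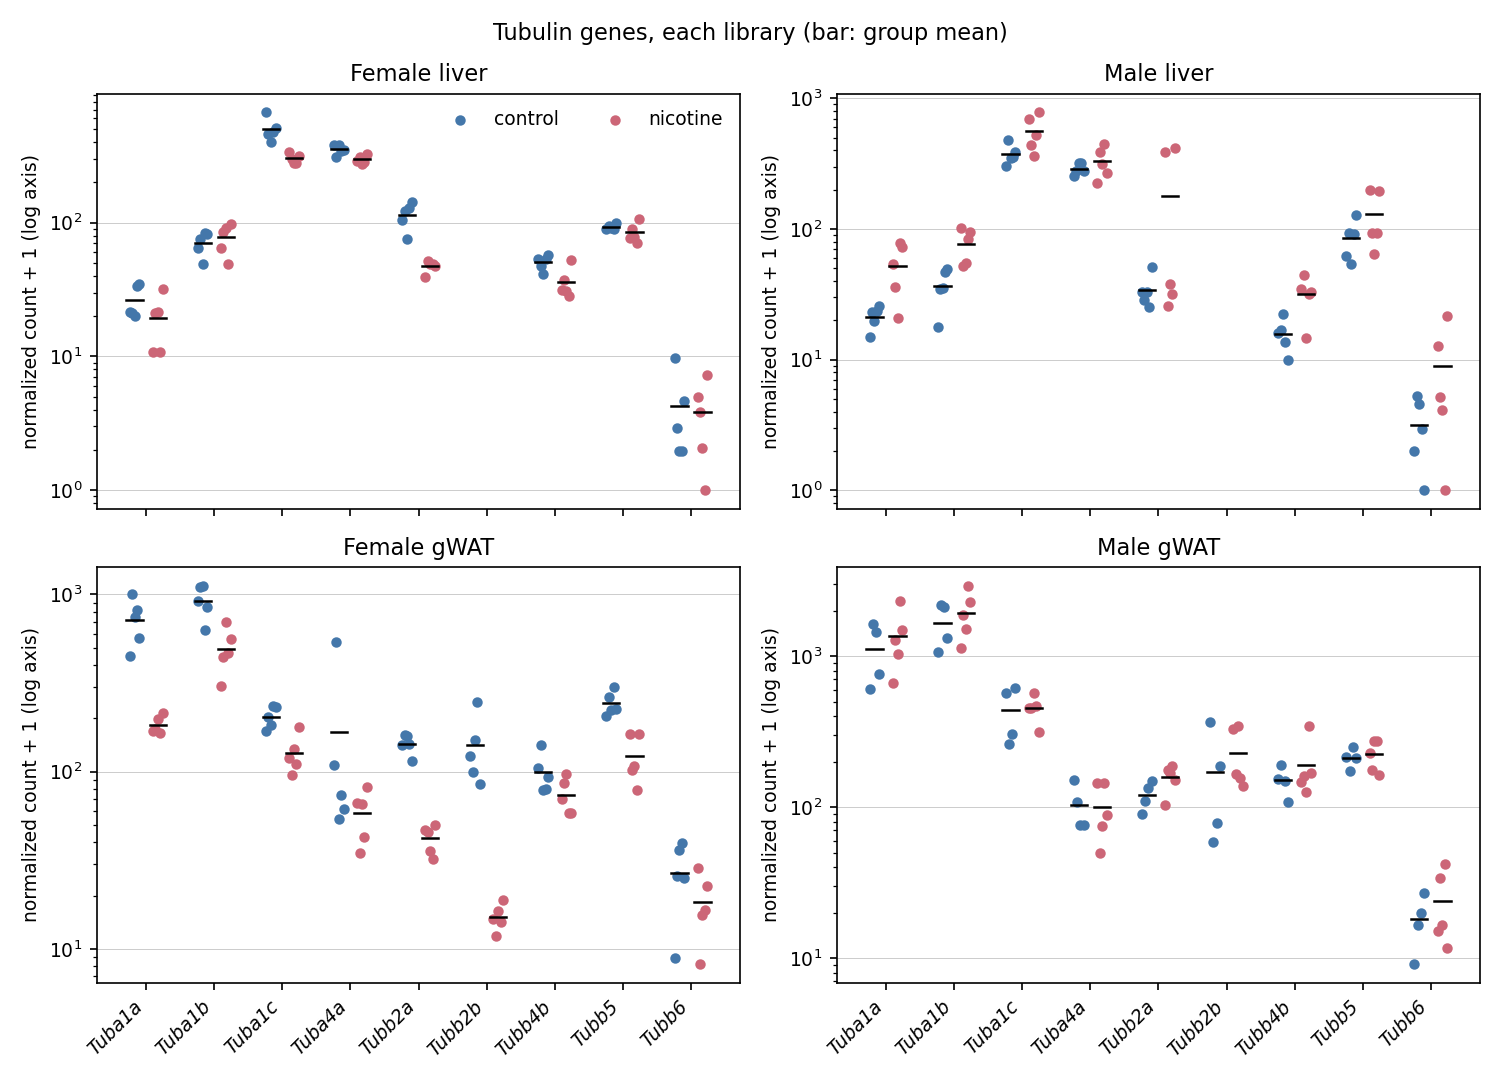
Normalized count + 1 on a log axis of each tubulin gene (horizontal axis) in each library, with 1 panel per tissue and sex, controls in blue, the nicotine group in red and a bar at each group mean. In female gWAT the nicotine libraries of Tuba1a, Tubb2a, Tubb2b and Tubb5 lie below all controls, and in male liver 2 nicotine libraries of Tubb2a (389.9 and 412) stand far above the other 8.

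The plot of values in each library shows the levels that the female gWAT differences rest on, and that Tubb2b has points only in the gWAT panels. Cell type markers moved with exposure in the same libraries. Of the 12 macrophage and Kupffer cell markers 11 had a row (all but Clec4f, a marker of Kupffer cells in liver), 6 were tested and all 6 were called lower, and their summed level was 537 to 1128 in controls and 170.3 to 402 with nicotine. Of 7 mesothelial markers all were tested and 4 were called lower (summed 241 to 509 and 94.6 to 332), and of 11 stellate cell and fibroblast markers 9 were tested and 3 were called lower (summed 5309.6 to 11703 and 2546 to 8376), with no row for Lrat. Of the 7 adipocyte markers 1 was called higher and 0 lower (summed 39634 to 114467 and 35114 to 60968). Of the endothelial markers 0 of 7 tested were called, and their sum was 709 to 1468 and 1001 to 1709 in the respective groups. The part of these cells in the tubulin values was not tested. Leaving out control 2 and control 4, the libraries with the most muscle and ovary markers, kept 5 members called, with Tubb2b at -2.95, Tubb2a at -1.73 and Tuba1a at -1.65, and Tuba1c (-0.63) was no longer called.

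The makeup of the tubulin reads in female gWAT differed as well as their amount. The 4 α-tubulin genes together took 1219 ± 313 RPM in controls and 419 ± 129 with nicotine, and the 5 β-tubulin genes 394 ± 67.3 and 130.0 ± 35.5 (SD, n = 5 each). In neither class did the groups overlap in RPM. RPM give a larger drop here than the normalized counts used above. Tuba1b averaged 558 and 239 RPM but 922 and 494 normalized counts. Within the β-tubulin reads the mean share of Tubb2b was 21.0% (14.3 to 30.6%) in controls and 5.40% (4.33 to 6.75%) with nicotine, and that of Tubb2a was 22.2% and 15.4%. The shares of Tubb4b (15.5% and 28.0%) and Tubb5 (37.4% and 44.8%) had higher means with nicotine although their counts had lower means. Within the α-tubulin reads Tuba1a averaged 35.6% in controls and 21.8% with nicotine, and Tuba1b 46.7% and 56.7%. These are shares of 3′ reads, not of protein, and reads of near-identical copies may have been assigned to the wrong gene.

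**Figure D2:**
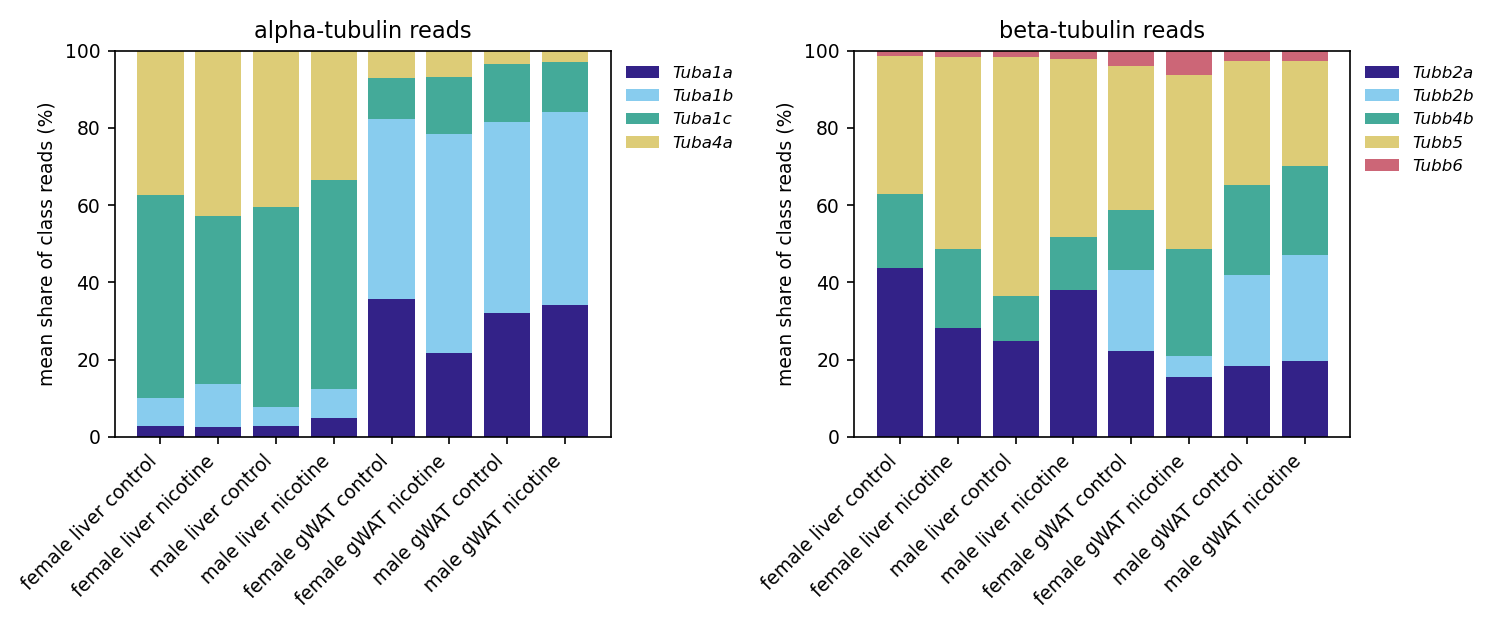
Mean share in percent of the α-tubulin reads (left) and β-tubulin reads (right) that each gene took in each of the 8 groups (horizontal axis). Tuba1c and Tuba4a fill most of the liver α-tubulin bars and Tuba1a and Tuba1b most of the gWAT bars, and the Tubb2b share is 21.0% in female gWAT controls and 5.40% in the female gWAT nicotine group.

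The plot of isotype shares shows that the 2 tissues used different α-tubulin genes in both sexes and both exposures. In female liver controls Tuba1c took 52.5% and Tuba4a 37.4% of the α-tubulin reads, and Tuba1a 2.68%. In the male gWAT nicotine group Tubb2b averaged 27.6% (15.6 to 40.3%) and Tubb2a 19.6% of β-tubulin reads, against 21.0% and 22.2% in female gWAT controls. Tubb5 took 24.8 to 29.7% there against 34.6 to 41.6% in female gWAT controls, without overlap, and Tubb4b averaged 23.0% against 15.5%. These groups differ in both sex and exposure. In male gWAT controls Tubb5 averaged 32.1% (25.9 to 39.8%), which overlapped the male nicotine group. Tubb4b averaged 23.3%, Tubb2b 23.6% and Tubb2a 18.4% in those male controls. Of the α-tubulin reads Tuba1a averaged 34.0% and Tuba1b 50.2% in the male gWAT nicotine group, against 35.6% and 46.7% in female gWAT controls. In male gWAT controls they averaged 32.2% and 49.4%.

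In the liver of daughters the difference was narrower. Tubb2a and Tuba1c were lower with paternal nicotine and their groups did not overlap, while Tubb5, Tuba1b and Tuba1a overlapped. The limma fit called 2 of 7 tested members, both lower, where 3.28% of all 9173 tested genes were called and 1.67% were called lower. Groups that did not overlap were found for these 2 of the 8 members with a row, and for 2.49% of all tested genes in that direction, and nothing is read from these counts either. Tubb6 had a row but a mean under 10 and was not tested.

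Tuba1c, the α-tubulin with the largest share of reads in liver, had 665, 457, 396, 477 and 507 normalized counts in controls and 335, 299, 279, 277 and 316 with nicotine. All 5 nicotine libraries lay below the lowest control, and control 1 was the highest. The means were 501 ± 101 and 301 ± 24.7 (SD, n = 5 each), 1.66-fold lower, with a log2 difference of -0.71 (SE 0.11). Tuba4a, the other main liver α-tubulin, ranged from 309.6 to 381 and from 274 to 324, with 4 of 5 nicotine libraries below all controls and a log2 difference of -0.24 (SE 0.09) that was not called. Tuba1a, at 19.2 to 33.7 in controls and 9.81 to 31.0 with nicotine, and Tuba1b, at 48.0 to 82.7 and 48.0 to 97.1, had log2 differences of -0.53 (SE 0.29) and 0.12 (SE 0.18).

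Tubb2a had 104, 122, 74.8, 127 and 142 normalized counts in female liver controls and 38.3, 50.4, 48.3, 48.0 and 46.5 with nicotine. The nicotine libraries were tightly grouped and all below the lowest control, which was control 3. The means were 114 ± 25.8 and 46.3 ± 4.67, 2.46-fold lower, with a log2 difference of -1.25 (SE 0.15). Tubb4b had 40.3 to 56.4 in controls and 27.3 to 51.7 with nicotine, where nicotine 5 alone reached the control range (log2 difference -0.51, SE 0.17, not called). Tubb5 had 88.4 to 98.3 and 69.8 to 105 (-0.15, SE 0.12), and Tubb6 0.951 to 8.74 and 0 to 6.20, from 17 and 14 reads in the 5 libraries of each group.

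The share of Tubb2a among β-tubulin reads of female liver was 43.6% (36.3 to 47.3%) in controls and 28.0% (22.2 to 33.1%) with nicotine, with no overlap, and that of Tubb5 was 35.9% and 49.7%. The β-tubulin genes together took 131 ± 17.9 and 86.5 ± 14.3 RPM. Of the cell type markers in female liver, 1 hepatocyte marker of 8 was called higher and none of 10 tested stellate cell and fibroblast markers, 9 macrophage and Kupffer cell markers or 6 endothelial markers was called. The summed endothelial markers were at 689 to 751 in the controls and, without overlap, at 496 to 616 with nicotine, and their part in the tubulin values was not tested. Without control 4 and nicotine 5, which held the most skeletal muscle markers (165 and 295, others at most 17.7), Tubb2a was at -1.21 and Tuba1c at -0.74, both called.

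In the liver of sons all 7 tested members had higher means with paternal nicotine, and none was called. The direction turned for Tubb2a (-0.08) without nicotine 1 and 5 and for Tuba4a (-0.11) without nicotine 2 and 4. The log2 differences ran from 0.15 for Tuba4a to 1.39 for Tubb2a, with a median of 0.97 against a median of 0.00 over all tested genes. Of all 9093 tested genes of male liver, 0.055% were called by limma, 0.022% higher. Of the 7 members, 4 had an unadjusted p under 0.05 in limma, as did 14.5% of all tested genes. By edgeR's quasi-likelihood test 0 were called, beside 0.033% of all genes, and by DESeq2 2 (Tuba1a and Tuba1b), beside 2.06% of the 9018 genes to which it gave an adjusted p. The groups did not overlap for 1 of the 8 members with a row, Tuba1b, which was higher, as were 1.31% of all tested genes. Nothing is read from these counts.

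Tubb2a had 31.6, 27.4, 31.9, 24.5 and 50.4 normalized counts in male liver controls and 389.9, 24.9, 36.7, 30.7 and 412 with nicotine. Nicotine libraries 1 and 5 were far above every other male liver, and nicotine libraries 2, 3 and 4 lay within the control range. The log2 difference was 1.39 (SE 0.72) with all libraries, 0.85 without nicotine 1, 0.83 without nicotine 5 and -0.08 without both. It was 2.46 without nicotine 2 and 4, the libraries with pancreas and skeletal muscle markers. Tubb5 was also highest in nicotine 1 and 5, at 197 and 196 against 53.2 to 128 in the other 8 libraries, and its log2 difference was 0.51 with all libraries and 0.01 without those 2. Tubb6 was at 11.8 in nicotine 1, higher still in nicotine 5 and at most 4.22 in the others.

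The α-tubulins were less tied to those 2 libraries. Tuba1b, the member whose groups did not overlap, had 16.8, 33.7, 34.6, 46.0 and 48.2 in controls and 100.05, 50.8, 53.4, 83.2 and 93.4 with nicotine, where libraries 2 and 3 were just above the highest control. Its log2 difference was 1.10 (SE 0.28), and 0.83 without nicotine 1 and 5. Tuba1a had 13.8, 22.1, 18.6, 22.5 and 24.6 in controls and 53.0, 35.2, 19.9, 76.8 and 71.2 with nicotine (log2 difference 1.16, SE 0.32, and 0.89 without nicotine 1 and 5). Only nicotine 3 was inside the control range. The β-tubulin Tubb4b had 8.96 to 21.3 in controls and 13.6 to 43.5 with nicotine (0.97, SE 0.30, and 0.85 without those 2 libraries). Tuba1c reached 691 and 779 in nicotine 1 and 5, with 360.3 to 522 in the other nicotine libraries and 301 to 477 in controls (0.54, SE 0.20, and 0.24 without the 2), and Tuba4a had 251 to 317 and 225 to 447 (0.15, SE 0.17, and 0.40 without the 2).

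**Figure D3:**
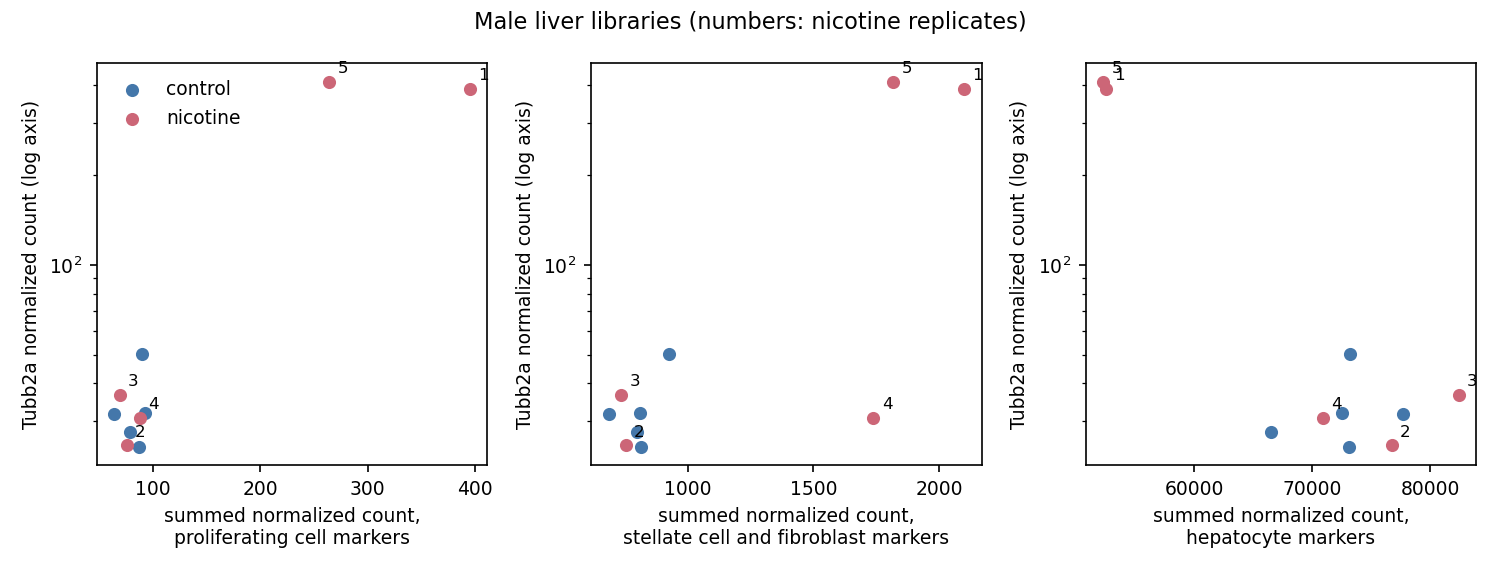
Tubb2a normalized count (log axis) of each male liver library against the summed normalized count of proliferating cell markers (left), stellate cell and fibroblast markers (middle) and hepatocyte markers (right), with controls in blue and numbered nicotine replicates in red. Nicotine 1 and 5 have the highest Tubb2a, the highest proliferating and stellate cell sums and the lowest hepatocyte sums of the 10 libraries.

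Marker levels of other cells stood apart in the same male livers, as the plot of Tubb2a against marker sums shows. The 14 proliferating cell markers summed to 395 and 265 in nicotine 1 and 5 and to 64.3 to 93.1 in the other 8 libraries. The 11 stellate cell and fibroblast markers summed to 2099 and 1817 there, to 1738 in nicotine 4 and to 686 to 926 elsewhere. The 12 macrophage and Kupffer cell markers summed to 579 and 496 against 206 to 342 elsewhere, and the 8 hepatocyte markers to 52499.6 and 52313 against 66533 to 82411. All 14, 11, 12 and 8 of these genes had a row in the table, and 0 of the tested ones were called in either direction. Their part in the tubulin values was not tested. Tuba8, an α-tubulin outside the set that was singled out after its values were seen, had 19.9, 21.8 and 17.2 normalized counts in nicotine 1, 4 and 5 and at most 3.16 in the other male livers, and nicotine 4 held 6221 summed counts of skeletal muscle markers.

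In the gWAT of sons no member stood apart by exposure. Calls were hard to reach there: in simulated data 3.26% of 2-fold and 55.8% of 4-fold changes were recovered. Of the 9 members 8 had a higher and 1 a lower mean log2 value with nicotine, the differences ran from -0.08 (Tuba4a) to 0.66 (Tubb2b), and no group pair was without overlap. limma called 0 members, as did edgeR and DESeq2, 0 had an unadjusted p under 0.05 (1.62% of all tested genes did), and 0.0% of all 11210 tested genes were called, with 0.731% of tested genes not overlapping. Tubb2b had 363, 57.4, 77.0 and 186 normalized counts in the 4 controls and 330.3, 166, 345, 156 and 136 with nicotine. Its controls alone spanned the whole nicotine range, and the log2 difference was 0.66 (SE 0.52). Tubb2a had 88.8, 108, 132 and 148 in controls and 102, 175, 166, 186 and 151 with nicotine, with 4 of 5 nicotine libraries above all controls and a log2 difference of 0.38 (SE 0.22). Tuba1a ranged from 606 to 1629 and from 662 to 2310.3 (0.28, SE 0.40), and Tuba1b from 1059 to 2169.5 and from 1132 to 2911 (0.21, SE 0.32). Tuba1c, Tubb4b, Tubb5 and Tubb6 had log2 differences of 0.11, 0.26, 0.05 and 0.31. The epididymis and sperm markers summed to 20005 in control 1 and 15473 in nicotine 1 and to 133 to 3467 elsewhere, and without those 2 libraries Tubb2b was at 0.99 and Tubb2a at 0.40, again with 0 members called. Macrophage and Kupffer cell markers summed to 4003 in nicotine 3, the nicotine library with the most Tubb2b, and to 453 to 1188 in the other male gWAT libraries. The lowest sum, 453, was that of control 1, which had the most Tubb2b of all (363). Nicotine 1, with 330.3 of Tubb2b, had a sum of 567. Of the macrophage and Kupffer cell markers 8 were tested and 0 called. Their part in the tubulin values was not tested.

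**Figure D4:**
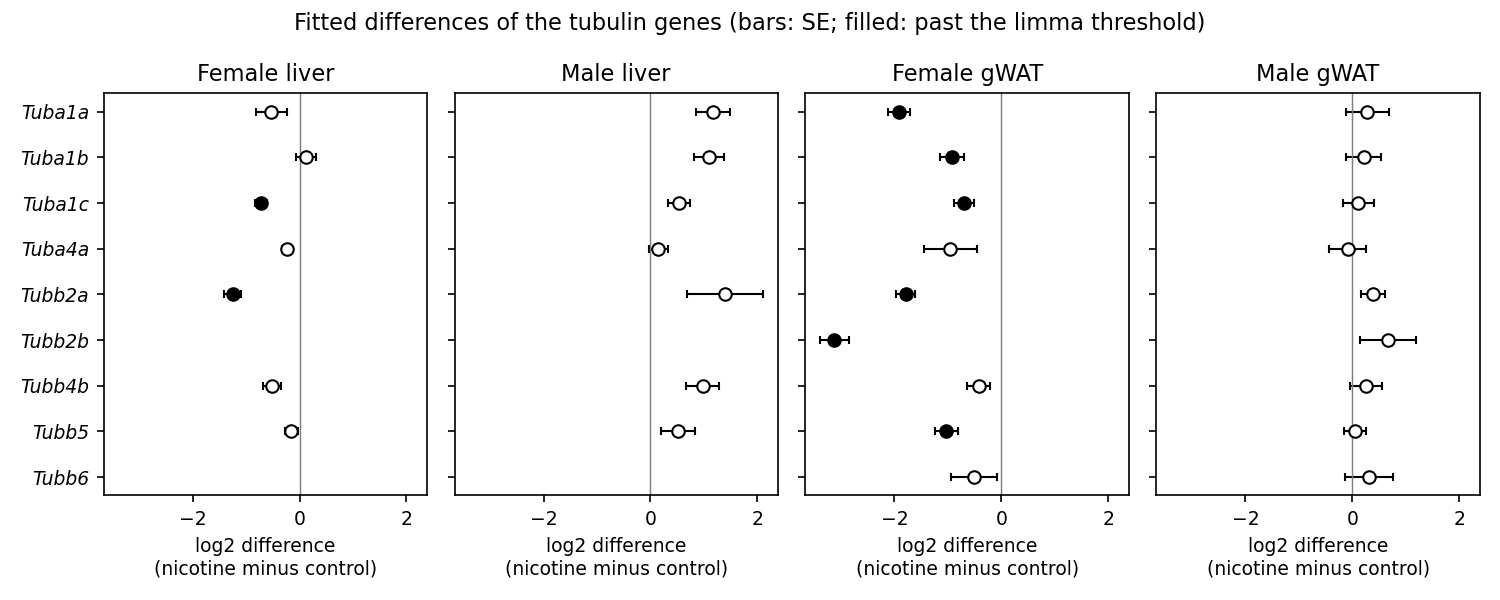
Fitted log2 difference, nicotine minus control (horizontal axis), of each tested tubulin gene in the 4 tables, with bars of 1 SE and filled points for genes past the limma threshold of 0.05. The female gWAT points all lie below 0, from -0.42 to -3.12, those of male liver all above 0, and those of male gWAT run from -0.08 to 0.66.

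Set side by side, the medians of the fitted log2 differences over the tested members were -0.51 (female) and 0.97 (male) in liver and -0.95 (female) and 0.26 (male) in gWAT, against medians within 0.03 of 0 over all tested genes of each table, as the plot of fitted differences shows. The members were chosen by these differences, so nothing is read from the medians. Without nicotine 1 and 5 the male liver values ran from -0.08 (Tubb2a) to 0.89 (Tuba1a). Differences between the sexes or the tissues were not tested. Tubb2a had values of -1.25, 1.39, -1.79 and 0.38 in this order of tables, and Tuba1c -0.71, 0.54, -0.70 and 0.11. Tubb2a and Tuba1c were called lower in both female tables and in neither male table.

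The other genes of the tubulin pathway were counted from lists of genes with known roles: folding and assembly of the heterodimer, autoregulation of tubulin mRNA, the γ-tubulin ring complex that seeds microtubules, tubulin-modifying enzymes, microtubule-associated proteins, motors, other tubulins, and actin genes for comparison, 169 genes in all. In female gWAT 30 of 132 tested genes passed the threshold, 16 higher and 14 lower, which is 22.7% beside the 25.2% of all tested genes (12.4% higher and 12.8% lower), and their median log2 difference was 0.00 beside -0.03. The count was 19 without nicotine 4 and 18 without control 2 and 4. Of 22 actin genes 20 were tested and 8 were lower, 0 higher. Of 26 tested microtubule-associated proteins 7 were higher and 2 lower, and of 27 tested motor genes 5 were higher and 4 lower.

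The largest change among the lists in female gWAT was in Tppp3, a microtubule-bundling protein of the tubulin polymerization-promoting family. It fell from 107 ± 24.4 to 23.6 ± 8.93 normalized counts (SD, n = 5 each), 4.51-fold (log2 difference -2.19, SE 0.28, limma adjusted p = 0.000206), with all 5 nicotine libraries below all controls. Its relative Tppp rose 2.03-fold, from 84.1 ± 25.3 to 171 ± 34.1 (limma adjusted p = 0.00453), with all 5 above. Map6, which stabilizes microtubules against cold, rose 2.94-fold (limma adjusted p = 0.00973, 4 of 5 above all controls), and Dclk1, a doublecortin-like kinase that binds microtubules, fell 2.53-fold (limma adjusted p = 0.00389, 4 of 5 below).

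Among the motors, Kif21a, a kinesin that slows microtubule growth at the cortex, rose 2.60-fold in female gWAT (20.4 ± 4.83 to 53.0 ± 17.8, limma adjusted p = 0.00372, 5 of 5 above all controls). The dynein light chain Dynll2 fell 2.22-fold (limma adjusted p = 0.00513, 4 of 5 below), the kinesin light chain Klc1 fell 1.88-fold (limma adjusted p = 0.00241, 5 of 5 below) and the minus-end kinesin Kifc3 fell 1.75-fold (limma adjusted p = 0.0191, 4 of 5 below). Kifc3 was no longer called without control 3 or without nicotine 4. Among the genes that act on the tubulin subunits, 1 of 23 tested folding genes was called (4.35%, beside 25.2% of all tested genes). It was the chaperonin subunit Cct5, which rose 1.75-fold (limma adjusted p = 0.00441, 5 of 5 above).

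Of the 12 autoregulation genes, all tested in female gWAT, 2 were called, which is 16.7% beside 25.2% of all tested genes. Both rose, as did 12.4% of all tested genes, and nothing is read from the count. Cnot1, the scaffold of the CCR4-NOT deadenylase, rose 2.22-fold from 95.9 ± 38.7 to 213 ± 39.4 (limma adjusted p = 0.00201, 5 of 5 above all controls). Scaper, which recruits that complex to tubulin mRNA, rose 1.64-fold (limma adjusted p = 0.0144, 5 of 5 above). The polyglutamylase Ttll5 rose 1.88-fold (limma adjusted p = 0.0208, 4 of 5 above), the only call among 13 tested modifying enzymes (7.69%). Scaper, Ttll5 and Map6 were no longer called without control 2 and 4. None of 8 tested γ-tubulin ring complex genes (1 with an unadjusted p under 0.05) and none of 3 tested other tubulins (0 with one) was called by limma, and edgeR and DESeq2 called 0 of each. Of the actin genes, the transcription factor Srf fell 2.53-fold (limma adjusted p = 0.00383), the actin-sequestering Tmsb4x 2.30-fold (0.0071), the actin-bundling Tagln2 2.10-fold (0.000383) and the myosin light chain Myl12a 2.01-fold (0.00144), each with 5 of 5 nicotine libraries below all controls.

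In female liver 5 of 110 tested pathway genes passed, 2 higher and 3 lower (4.55%, beside 3.28% of all tested genes, 1.61% higher and 1.67% lower). Mid1ip1, which binds the microtubule-associated protein Mid1 and also promotes fatty acid synthesis, fell 1.47-fold, from 379 ± 32.6 to 257 ± 27.0 (log2 difference -0.56, SE 0.10, limma adjusted p = 0.00197, 5 of 5 below all controls). Tbcc, a tubulin-folding cofactor, fell 1.71-fold (limma adjusted p = 0.0183, 5 of 5 below), Kif21a fell 1.26-fold, from 239 ± 11.0 to 190.1 ± 9.91 (limma adjusted p = 0.0406, 5 of 5 below), and the tubulin deacetylase Sirt2 rose 1.49-fold (limma adjusted p = 0.0422, 4 of 5 above). Kif21a was the only pathway gene called in more than 1 table, with opposite directions in female liver and female gWAT, and that difference was not tested. The fifth call, Pfn1, had a mean under 20 and was named after its values were seen (log2 difference 1.00). The count of 5 fell to 3 without control 1, without control 2 or without nicotine 1, to 2 without control 5 or without nicotine 4, and to 1 without control 4 and nicotine 5. Of the 4 named genes, Mid1ip1 was called under every alternative, while Tbcc was lost under 3, Kif21a under 11 and Sirt2 under 12.

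In male liver 0 of 111 tested pathway genes were called by limma (16 had an unadjusted p under 0.05, beside 14.5% of all tested genes, edgeR called 0 and DESeq2 2), and 1 was called without nicotine 2 and 4. All 16 tested actin genes had higher means in male liver with nicotine, with a median log2 difference of 0.52 and 0 called. Without nicotine 1 and 5, whose stellate cell, proliferating cell and macrophage marker sums were high and hepatocyte sums low, 15 of 16 had higher means and the median was 0.26. The part of those cells in the actin values was not tested. In male gWAT 0 of 135 were called by limma, edgeR or DESeq2, and 4 had an unadjusted p under 0.05.

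Likeness to Tubb2a was measured by Pearson's r, over the 39 libraries, of the deviations of log2(normalized count + 1) from the mean of each library's own group, so that the difference between exposures does not enter. Among 7752 genes tested in all 4 tables the highest r with Tubb2a were those of Anxa2 (0.86), Sqstm1 (0.85), Tagln2 (0.84), Anxa5 (0.84) and Rhoc (0.80). Anxa2 and Anxa5 encode membrane-binding annexins, Sqstm1 an autophagy receptor and Rhoc a small GTPase of the actin cytoskeleton. With the 2 libraries in which Tubb2a deviated most left out of the correlation, r was 0.66 to 0.74 for these genes. Both libraries still entered the group means that were subtracted, so these r do not show the likeness without them. Spearman's rho over all 39 was 0.71 for Anxa2 and 0.27 for Sqstm1. Of the other members Tubb5 was the most like Tubb2a (r = 0.66, rank 46), and Tuba1c, Tuba1b and Tuba1a had 0.42, 0.39 and 0.35. With the same 2 libraries left out in that way, these were 0.51 for Tubb5 and 0.25, 0.34 and 0.32. Libraries share depth and tissue makeup, so these values describe the samples and carry no p-value.

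Tubb2b could be compared only over the 19 gWAT libraries. Among 10041 genes its highest r were those of Hebp2 (0.86), Abhd12 (0.85), Mad2l1bp (0.84), Fam3c (0.83) and Psmd10 (0.82). They were 0.71 to 0.82 with the 2 libraries farthest from the median left out after the group means were subtracted. Of the members, Tuba1c had an r of 0.74 with Tubb2b (rank 57), Tuba1b -0.66, Tuba1a -0.61 and its chromosomal neighbour Tubb2a -0.22. With the same 2 libraries left out in that way, these were 0.62, -0.57, -0.43 and -0.10. The tables differed in these values. Over the 10 female gWAT libraries r was 0.39 for Tuba1c, -0.19 for Tuba1b, 0.30 for Tuba1a and 0.23 for Tubb2a. Over the 9 male gWAT libraries it was 0.86, -0.89, -0.87 and -0.41 in that order. With control 1 and nicotine 1, the libraries with epididymis markers, left out of the correlation, it was 0.93, -0.85, -0.82 and 0.58. Those 2 libraries still entered the subtracted group means, so the latter values are not free of them. The r of Tubb2b with Tuba1a was negative in male gWAT and positive in female gWAT, and that difference was not tested.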

How the data were processed

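The deposited values are a signal: normalized counts that the authors obtained from gene read counts with DESeq2, scaling each library by 1 size factor, separately in each table. Per the file headers they also hold the authors' log2 fold change, p-value and adjusted p-value, which were not used for results. Per the labels' protocols, Zymo columns were used for RNA and an Illumina kit for the 3′-tag libraries. Trimming and alignment tools (cutadapt, STAR), DESeq2 and mm10 are named without versions in the submitters' processing notes. Counting, annotation, strand use and gene filter are not stated there. Whole reads were recovered column by column from the step that 1 read makes, and 100% of values were whole within 0.1 reads in every library. On these reads edgeR called 300, 3, 2558 and 0 genes and DESeq2 327, 186, 2984 and 0 (female liver, male liver, female gWAT, male gWAT).

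Each table was fitted alone with limma 3.58.1 (R 4.3.3, mean trend) on log2(normalized count + 1) where a gene's mean was at least 10, with p-values adjusted by Benjamini-Hochberg over 9173, 9093, 10532 and 11210 genes and a threshold of 0.05. edgeR 4.0.16 and DESeq2 1.42.0 on the recovered reads were alternatives, as were pseudocounts of 0.5 and 5, no filter, a mean of 50 or more, quantile normalization, weighted libraries, a block for replicate number, and fits that left out libraries. Leaving out male liver nicotine 2 and 4, female gWAT control 2 and 4, and male gWAT control 1 and nicotine 1 was chosen after seeing the data, as was the likeness to Tubb2b within each gWAT table. Summaries used Python 3.11.15 with SciPy 1.17.1, NumPy 2.4.6 and pandas 2.3.3, and plots used matplotlib 3.10.9. Tested on simulated data in which 200 genes were changed, the code recovered, at a 2-fold change, 84.4% in female liver (of 9040 genes run), 57.7% in male liver (of 8888), 29.6% in female gWAT and 3.26% in male gWAT, and at a 4-fold change 98.9, 95.6, 80.6 and 55.8%.

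The members, gene lists and tests were chosen with earlier results of these data known. Named besides the members were, for each list and table, up to 4 called genes with the largest change and a mean of 20 or more, genes called in more than 1 table, and the 5 genes most like Tubb2a and Tubb2b. The likeness of Tubb2b was planned over all libraries and computed over the 19 gWAT libraries, since it has no row in liver. No 2 libraries of the same group held identical values or agreed within sampling noise (lowest chi-square per degree of freedom 2.16). For male gWAT 5 controls were planned and 4 columns were used. Planned protein comparisons were not run, and coding sequences from GENCODE M21 were compared in their place. No correction for shared sequence was made.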

Additional observations from a re-analysis of the deposited data

Results flagged for a closer look

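Among the 68 groups of 4 or 5 libraries in which a member was checked for a library far from the others, 3 had one, and chance alone gives about 5% of groups. Tuba4a was at 538.7 normalized counts in female gWAT control 2, against 53.3 to 108 in the other 4 controls, and that library also held most of the skeletal muscle markers. Tubb2a was at 50.4 in male liver control 5, against 24.5 to 31.9 in the other 4 controls, and all of these were below the 389.9 and 412 of male liver nicotine 1 and 5. Tubb4b was at 344 in male gWAT nicotine 4, against 124 to 168 in the other 4 nicotine libraries.

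Tubb2b was on opposite sides of its controls in the gWAT of the 2 sexes. Every female nicotine library was below, and every male nicotine library above, the mean log2 value of its own controls, with log2 differences of -3.12 and 0.66. The male difference was not called and its groups overlapped, and 3 of the 5 male nicotine libraries (136, 156 and 166) were below the arithmetic mean of the controls (171). The difference between the sexes was not tested.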

How the results depend on the processing

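Over 79 alternatives in the 4 tables, the 32 member differences gave 623 values, of which 622 moved by less than the residual SD of their gene and 0 called differences changed sign. The exception was Tubb2a in male liver, which went from 1.39 to -0.08 without nicotine 1 and 5. That these 2 libraries hold its high values is shown above. An outlying library also widens the residual SD, so large shifts could count as within it. Tubb2a in male liver went to 2.46 without nicotine 2 and 4. Tubb5 there went from 0.51 to 0.01 without nicotine 1 and 5, and Tuba4a in female gWAT from -0.95 to -0.37 without control 2. In all 12 values, of 8 differences, had the other sign, none of them of a called difference. The number of members called was 2 to 3 in female liver (leaving out 1 library gave 2 to 3), 5 to 6 in female gWAT (6 without any 1 library), 0 in male gWAT and 0 in male liver except for DESeq2, which gave 2.

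The pathway counts moved more. In female liver the 5 called genes became 3 with no filter, 2 at a mean of 50 or more, 3 with the replicate block, 2 to 4 without 1 library and 1 without control 4 and nicotine 5. In male liver the 0 became 2 with DESeq2 and 1 without nicotine 2 and 4. In female gWAT the 30 became 19 to 31 without 1 library and 18 without control 2 and 4, where fewer control libraries were fitted. For the rest the cause was not tested. Of the 16 named genes of female gWAT, 12 were called under every alternative.

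With the replicate number as a block, 2, 0 and 6 members were called in female liver, male liver and female gWAT. Same-numbered libraries did not deviate together (correlations of -0.28 to 0.17). A pairing with little effect on expression would not show in these values, so whether the numbers pair the samples is not known. No paired analysis was possible in male gWAT because its 4 control columns could not be tied to the numbered control samples. Quantile normalization, edgeR and DESeq2 moved the median of all tested genes by less than 0.1. Over all genes of male liver, 2 of 5 calls were higher by limma, 1 of 4 after quantile normalization, 1 of 3 by edgeR and 106 of 186 by DESeq2. Tubb6 in liver, left out by the filter on a mean of 10, had log2 differences of -0.17 (SE 0.55, females) and 1.08 (SE 0.72, males) with no filter, neither called.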
